A study of Mus musculus with 6 samples.

Results

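GABA-A receptors are the chloride channels through which the transmitter GABA inhibits neurons, and 7 genes for their subunits were followed here through every kind of library made from nuclei of mouse brain. The 7 are the alpha subunit genes Gabra2, Gabra3, Gabra4 and Gabra6, the beta gene Gabrb1, the gamma gene Gabrg3 and the delta gene Gabrd. They were taken by name, in the SCRB-seq table under the mouse prefix of its symbols, and all 7 were found, out of 19 genes whose symbol starts with Gabr and 25696 mouse genes in any table. The tissue, labelled cortex, was formalin-fixed and paraffin-embedded (FFPE) brain of C57BL/6J mice aged 8 to 12 weeks, cut into scrolls of 50 µm. The labels name no transgene, sex or treatment of the mice, and they do not tie wells or nuclei to animals. The paraffin was taken off by 1 of 3 methods (xylene at room temperature, heated xylene, or heated mineral oil), and frozen nuclei, which only the authors' annotation tables name, stand beside the FFPE nuclei.

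Each GABA-A receptor is a pentameric ring, most often of alpha, beta and gamma subunits. GABA binds between alpha and beta, and benzodiazepines bind between alpha and gamma. Receptors with gamma sit mostly at synapses and answer short pulses of GABA, while those in which delta replaces gamma lie outside synapses and carry a steady, tonic inhibition. In the forebrain Gabra4 is the usual alpha partner of delta. In the cerebellum that place is taken by Gabra6, which is known as a gene of cerebellar granule neurons. Gabra2 and Gabra3 encode alpha subunits of benzodiazepine-sensitive receptors, and Gabrb1 is known in neurons and astrocytes of the cortex.

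Positions are those of the GENCODE annotation on GRCm38. Gabra2 spans chr5:70957597-71095849 on the minus strand. Gabra4 (chr5:71569749-71658308, minus) and Gabrb1 (chr5:71658113-72149037, plus) face away from each other and share 196 bases at their starts, chr5:71658113-71658308. The sources used here do not say whether counting used strand, so a read inside those bases cannot be assigned with certainty. Gabra3 is at chrX:72432681-72656848 (minus), Gabra6 at chr11:42306437-42321072 (minus), Gabrg3 at chr7:56716465-57387188 (minus) and Gabrd at chr4:155384980-155398112 (minus). The genes differ widely in length, from 13.1 kb for Gabrd and 14.6 kb for Gabra6 to 671 kb for Gabrg3. Exonic lengths run from 2.49 kb (Gabra6) to 13.8 kb (Gabrb1).

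The 250 bases before the start of Gabra6 and of Gabrg3 are shown because Gabra6 and Gabrg3 are the members called different between FFPE and frozen SMART-Seq2 wells, in opposite directions. They are RefSeq sequence, GRCm38.p6, read 5′ to 3′ on the minus strand that carries both genes, at chr11:42321073-42321322 and chr7:57387216-57387465. Capitals mark TTGGCA, the core that nuclear factor I proteins recognise, searched on both strands (its reverse is TGCCAA).
Gabra6: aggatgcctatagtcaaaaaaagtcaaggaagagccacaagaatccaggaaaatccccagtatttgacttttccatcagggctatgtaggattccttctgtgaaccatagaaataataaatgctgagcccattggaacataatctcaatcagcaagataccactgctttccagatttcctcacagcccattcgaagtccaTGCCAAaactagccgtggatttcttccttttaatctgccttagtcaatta
Gabrg3: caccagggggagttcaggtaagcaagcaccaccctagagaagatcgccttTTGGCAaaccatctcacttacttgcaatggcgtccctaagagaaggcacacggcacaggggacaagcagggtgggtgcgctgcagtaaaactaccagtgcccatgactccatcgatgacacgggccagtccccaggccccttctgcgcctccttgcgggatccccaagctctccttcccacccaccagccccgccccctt
The Gabra6 window held 40.8% G or C and 2 CpG, and the motif began 50 bases before the start. In the Gabrg3 window, with 60.4% G or C and 9 CpG, it began 200 bases before the start. RefSeq windows were found for 6 of the 7 members (8 windows), and the other 4 genes with a window held no TTGGCA in it. Over 32851 such windows, 12.3% held the motif on either strand, the median was 52.4% G or C, and 13.3% were lower in G and C than the Gabra6 window. The match is a description of these letters and not a binding site.

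SCRB-seq, which counts the 3′ end of transcripts, was run on 64 wells: 16 for each way of removing paraffin and 16 of frozen nuclei, 8 of 10 nuclei and 8 of 100 in each. An FFPE well held 7512 to 147257 mouse counts and a frozen well 17611 to 167144. SMART-Seq2, which covers the whole transcript, was run on 12 wells of 100, 50 or 10 nuclei, with 422718 to 942966 counts in FFPE wells and 270363 to 891133 in frozen wells. Each chemistry is 1 GEO sample, so the wells are technical, and p-values measure only the spread between them. In SCRB-seq the wells of 1 method and 1 nuclei number also formed 1 library pool, so pool and method cannot be told apart. In bulk wells, fewer cells of a type and less RNA per cell cannot be told apart.

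Gabra6 stood out among the members in the SCRB-seq wells. It had 0 counts in all 16 frozen wells and 902 counts in the FFPE wells, 47 of 48 of which held at least 1. As counts per 1000000 mouse counts of the well (CPM), FFPE wells had a lowest value of 0, a median of 264 and a highest of 841. The FFPE well at 0 held 10 nuclei in mineral oil, and it is the only well in which the groups overlapped. Gabra6 was at least 108-fold higher in FFPE, taking 3 counts over all frozen wells (2.82 CPM) as the limit that a count of 0 allows. The fitted log2 difference, which depends on the prior count where a group is at 0, was 7.15 (SE 0.55, edgeR quasi-likelihood test, Benjamini-Hochberg adjusted p = 1.81e-17). Gabra6 passed the filter on low counts only through its FFPE wells, so a difference was bound to be found once it was tested.

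**Figure D1:**
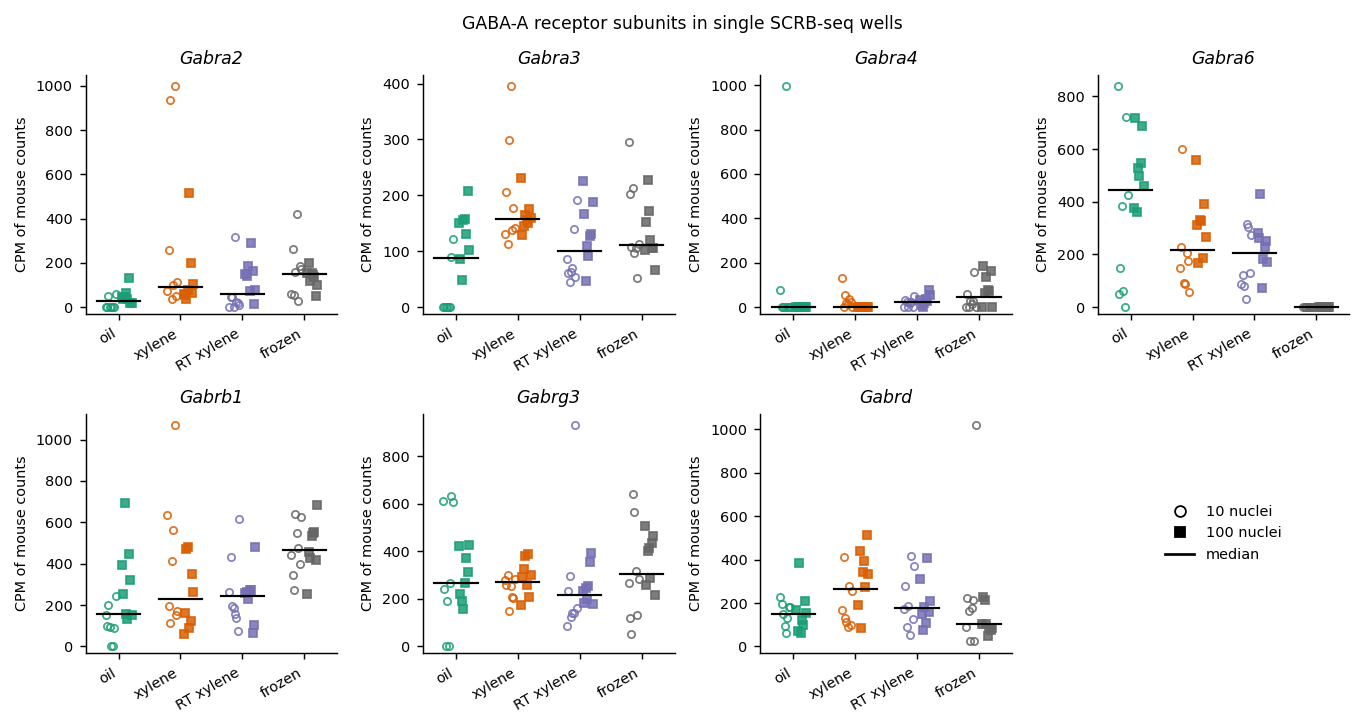
Counts per 1000000 (CPM) of each member in every SCRB-seq well, by method and nuclei number. All 16 frozen wells were at 0 for Gabra6, whose FFPE wells had a median of 264, while for the other 6 members FFPE and frozen wells overlapped.

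Gabrb1, the beta subunit gene, was lower in FFPE wells. Frozen wells ran from 254 to 685 CPM with a median of 468 (476 ± 125, mean ± SD, n = 16), and FFPE wells from 0 to 1071 with a median of 198 (265 ± 207, n = 48). The groups overlapped, with 41 of 48 FFPE wells below the frozen mean. The log2 difference was -0.83 (SE 0.26, edgeR adjusted p = 0.00501). The call was lost for heated xylene alone (-0.52, adjusted p = 0.194) and without the filter on low counts (-0.73, adjusted p = 0.0622). The same table lists human genes on a combined reference, and human GABRB1 had 2614 counts in FFPE wells against 208 in frozen wells. With these added to Gabrb1, an alternative chosen after seeing the data, the direction turned, to 0.81 (adjusted p = 6.77e-05).

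Neither Gabrg3 nor Gabrd passed the test in SCRB-seq. Gabrg3, the gamma subunit gene, had 278 ± 163 CPM in FFPE wells (SD, n = 48, lowest 0, median 255, highest 931) and 335 ± 165 in frozen wells (n = 16, lowest 54.1, median 303, highest 639). Its log2 difference was -0.32 (SE 0.25, edgeR adjusted p = 0.279). Scaling with DESeq2 size factors, which moved the median of all genes to -0.58, gave -0.93 (adjusted p = 0.000569). Gabrd, the delta subunit gene, had 207 ± 120 CPM in FFPE wells (n = 48, lowest 52.8, median 177, highest 514) and 180 ± 235 in frozen wells (n = 16, lowest 26.4, median 102, highest 1022). Its log2 difference was 0.27 (SE 0.29, edgeR adjusted p = 0.441), and DESeq2 size factors turned it to -0.36 (adjusted p = 0.288). In wells of 100 nuclei alone it was 0.81 and passed (edgeR adjusted p = 0.0428).

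Of the 4 members tested, 1 was thus called higher and 1 lower, while over all 1478 tested genes 30.2% were called higher and 27.7% lower. Wells that all lay above the frozen wells were found for 1.29% of those genes and wells that all lay below for 1.69%, and none of the 4 tested members was among them. The remaining alpha genes, Gabra2, Gabra3 and Gabra4, did not reach the filter. Gabra2 had a median of 52.2 CPM in FFPE wells (0 to 1002) and 148 in frozen wells (26.6 to 421). Gabra3 had a median of 131 in FFPE wells (0 to 396) and 111 in frozen wells (52.9 to 296). Gabra4, the forebrain partner of delta, was the sparsest, at 0 in 28 of 48 FFPE wells and 5 of 16 frozen wells, with 0 counts in all 8 wells of 100 nuclei for both heated mineral oil and heated xylene. With a filter of 30 summed counts the 3 could be tested, and none passed (log2 differences -0.56, -0.07 and -1.28, edgeR adjusted p = 0.266, 0.902 and 0.0557). At an unadjusted p under 0.05 that filter gave 3 of 7 members, beside 41.6% of 11719 genes.

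Between the ways of removing paraffin, 1 difference passed the test among the members, that of Gabra6. Mineral oil wells had a median of 444 CPM of Gabra6 (0 to 841, mean 426 ± 257, SD, n = 16). Heated xylene wells had 217 (56.4 to 601, mean 259 ± 157, n = 16) and wells of xylene at room temperature 205 (31.2 to 431, mean 201 ± 110, n = 16). The wells of the 3 methods overlapped. Mineral oil minus room-temperature xylene was 1.01 on the log2 scale (SE 0.34, edgeR adjusted p = 0.0425), the only call among the 4 tested members. Over 1080 genes 2.5% were called higher in that pair and 10.3% in either direction. This call was lost under DESeq2 size factors (0.93, adjusted p = 0.0985), in DESeq2's Wald test (0.95, adjusted p = 0.0508), without the filter (0.79, adjusted p = 0.188), with 30 summed counts (0.86, adjusted p = 0.107) and in wells of 10 nuclei alone (0.64, adjusted p = 0.548).

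In edgeR the other pairs of methods gave 0 calls of 4 members. The share of all genes it called was 8.52% for mineral oil minus heated xylene and 1.94% for heated minus room-temperature xylene. In both pairs 0 of the 4 were called by the Wald test of DESeq2 as well, beside 96 and 36 of 1080 genes. At an unadjusted p under 0.05 edgeR gave 1 and 0 of 4, beside 23.8% and 16.3% of genes. With a filter of 30 summed counts, which called 19% of 10541 genes lower in mineral oil than in heated xylene, 3 of 7 members were lower: Gabra2 (-2.61, adjusted p = 0.000400), Gabra3 (-1.15, adjusted p = 0.0351) and Gabrd (-0.98, adjusted p = 0.0423). For Gabra6 these differences were 0.66 (SE 0.34) and 0.35. Gabrd had its highest mean with heated xylene (258 ± 139 CPM), then with xylene at room temperature (206 ± 117) and mineral oil (156 ± 79.8, SD, n = 16 each), and its neighbours in that order did not differ beyond their spread. Gabrb1 followed the same order of means, at 332 ± 268, 250 ± 150 and 214 ± 179 CPM, with wide overlap.

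The FFPE minus frozen difference was also compared between wells of 10 and of 100 nuclei. In FFPE wells Gabra6 had a median of 150 CPM at 10 nuclei (0 to 841, n = 24) and 328 at 100 nuclei (72.6 to 719, n = 24), and in frozen wells 0 at both. The difference between the FFPE minus frozen contrasts at 10 and at 100 nuclei was tested for 6 members, and edgeR called 0 of them, also at an unadjusted p under 0.05, against 16.6% and 30.7% of 2511 genes. It cannot be estimated for Gabra6, whose frozen wells are at 0 in both. DESeq2's Wald test, which called 25.4% of genes lower and moved the median of all genes to -0.90, called 2 of 6 members lower at 10 nuclei, Gabra3 (-1.28, adjusted p = 0.0474) and Gabrd (-1.47, adjusted p = 0.0362), where edgeR gave -0.80 (adjusted p = 0.265) and -0.94 (adjusted p = 0.243). Gabra4, too low for this test, passed with a filter of 30 summed counts (4.53, adjusted p = 0.00157, with 0.64% of 11719 genes called higher), with FFPE counts at 100 nuclei that were 0 in 2 of the 3 methods. At 10 nuclei 16 of its 43 FFPE counts came from 1 mineral oil well (998 CPM), and without that well the difference was 3.47 (adjusted p = 0.0133, with 0.666% of 11711 genes called higher).

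SMART-Seq2 bulk wells, with more counts per well, gave Gabra6 the same direction. In the order of 100, 50 and 10 nuclei, frozen wells were at 0, 0 and 0 CPM. Wells of heated xylene had 400, 277 and 43.5, those of xylene at room temperature 245, 206 and 439, and those of mineral oil 345, 166 and 1026. Every FFPE well lay above every frozen well, as for 3.72% of the 9092 tested genes. Gabra6 was at least 177-fold higher in FFPE against 3 counts over the frozen wells, and the bound was still 139-fold without the well that raised it most. The fitted log2 difference was 10.60 (SE 1.42, edgeR adjusted p = 5.57e-05). As in SCRB-seq, Gabra6 was tested only because of its FFPE wells, so the test adds nothing to the counts themselves.

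Gabrg3 moved the other way. Frozen wells had 516, 936 and 476 CPM, those of heated xylene 317, 81.6 and 533, those of xylene at room temperature 151, 250 and 250, and those of mineral oil 71.3, 59.1 and 0. The heated xylene well of 10 nuclei overlapped the frozen wells, and the other 8 FFPE wells lay below them. The log2 difference was -2.39 (SE 0.61, edgeR adjusted p = 0.0242). The call was lost on leaving out the frozen well of 100 nuclei (adjusted p = 0.0750), of 50 (0.241) or of 10 (0.0736), or the 100-nuclei well of room-temperature xylene (0.0555). By method it passed for mineral oil alone (-4.15, adjusted p = 0.0137), and did not for heated xylene (-1.19, 0.739) or for xylene at room temperature (-1.83, 0.397). The differences between methods did not pass.

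**Figure D2:**
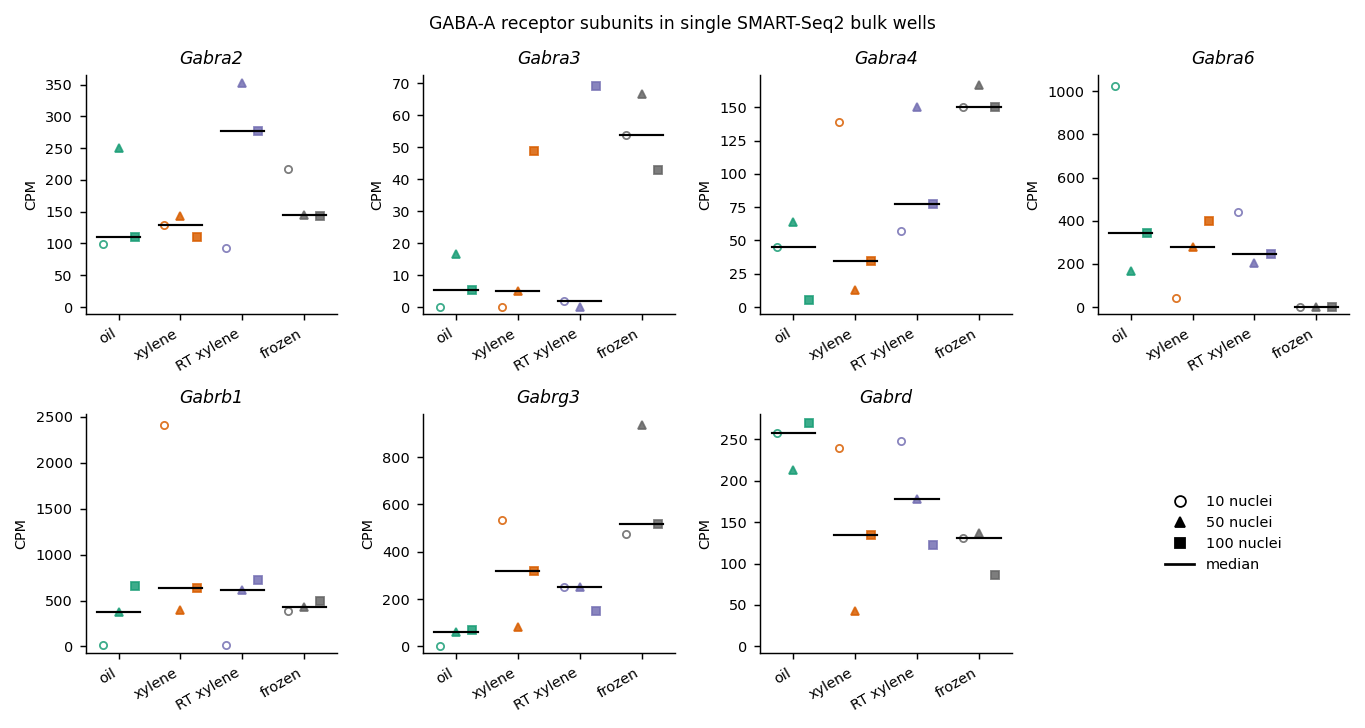
Counts per 1000000 (CPM) of each member in the 12 SMART-Seq2 bulk wells, by method and by 100, 50 or 10 nuclei. Gabra6 was at 0 in the 3 frozen wells and between 43.5 and 1026 in FFPE wells, and for Gabra4 all FFPE wells lay below the frozen wells.

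Of the 7 members tested in SMART-Seq2, 1 was called higher and 1 lower, beside 1.45% and 2.64% of all 9092 genes. Gabra4 had 150.0, 166 and 150.4 CPM in frozen wells. FFPE wells of Gabra4 had 34.6, 12.8 and 139 with heated xylene, 5.38, 63.9 and 44.9 with mineral oil, and 77.5, 149.9 and 56.8 with xylene at room temperature. All 9 lay below the 3 frozen wells, as for 4.96% of genes, although 1 of them almost touched the lowest frozen well, and the difference did not pass (-1.58, SE 0.77, edgeR adjusted p = 0.347). Gabra3 was between 42.9 and 66.6 CPM in frozen wells and between 0 and 69.3 in FFPE wells, with 3 FFPE wells at 0 (-2.19, SE 1.34, adjusted p = 0.501).

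Gabra2, Gabrb1 and Gabrd had overlapping wells and small differences. Gabra2 was at 144, 144 and 217 CPM in frozen wells and at 93.4 to 353 in FFPE wells (-0.28, edgeR adjusted p = 0.893). Gabrb1 was even in frozen wells, at 491, 425 and 391 CPM. FFPE wells of 10 nuclei scattered widely for Gabrb1, at 2414 (heated xylene), 18.3 (xylene at room temperature) and 19.5 (mineral oil), and the difference was 0.12 (adjusted p = 0.970). Gabrd was at 85.7, 137 and 131 CPM in frozen wells and at 42.1 to 269 in FFPE wells (0.42, adjusted p = 0.854).

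No pair of methods gave a called gene in SMART-Seq2: edgeR called 0% of 8372 genes, members included, in each of the 3 pairs. At an unadjusted p under 0.05 there was 1 of 6 members in mineral oil minus heated xylene and 1 in mineral oil minus room-temperature xylene, Gabrg3 both times (-2.95, SE 1.07, and -2.30, SE 1.05), beside 3.75% and 4.53% of genes. DESeq2's Wald test called 0 members in each pair. Of 8372 genes it called 16 in mineral oil minus heated xylene and 20 in mineral oil minus room-temperature xylene. In heated minus room-temperature xylene it called 1.

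Because SMART-Seq2 counts scale with transcript length, levels were set between genes only as CPM per kb of exon. In FFPE wells the order of means was Gabra6 140 ± 113, Gabrd 65.8 ± 26.6, Gabrb1 47.1 ± 51.4, Gabra2 22.8 ± 12.4, Gabrg3 16 ± 14, Gabra4 10.7 ± 8.33 and Gabra3 4.17 ± 6.45 (SD, n = 9). In frozen wells it was Gabrg3 53.9 ± 21.3, Gabrd 41 ± 9.76, Gabrb1 31.5 ± 3.68, Gabra4 25.6 ± 1.54, Gabra2 22 ± 5.49, Gabra3 13.9 ± 3.02 and Gabra6 at 0 (SD, n = 3). Gabrg3 thus had the highest mean in frozen wells and was in the lower part of the order in FFPE wells. By median, Gabrd (45.7) stood above Gabrg3 (43.3) in frozen wells. Gabra2 had nearly the same mean level in both. Most neighbours in either order were closer than their SDs. Reads from introns, if counted, would add to the long genes, and the sources used here do not say whether they were.

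**Figure D3:**
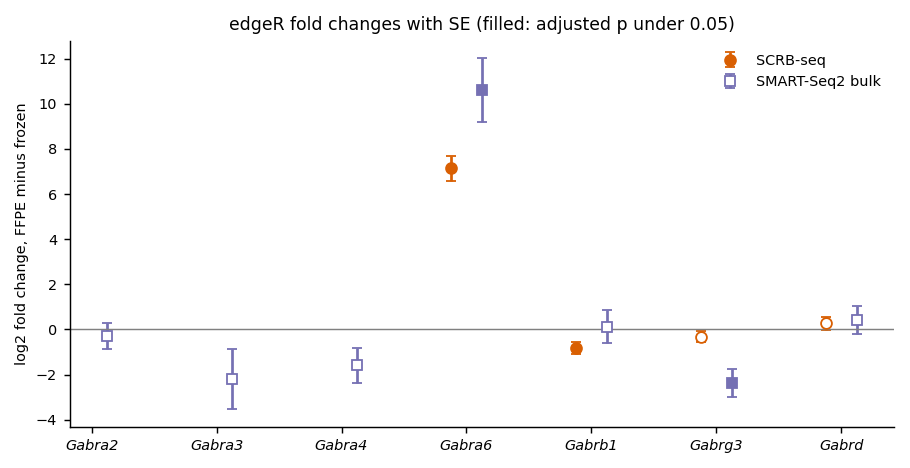
FFPE minus frozen log2 difference of each tested member in SCRB-seq and in SMART-Seq2, with its standard error. Gabra6 stands at 7.15 and 10.60, against frozen wells all at 0, and Gabrg3 at -0.32 and -2.39.

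Known markers of cerebellar granule neurons were high where Gabra6 was high. Of 6 genes listed, 5 are in the tables: Cbln1 and Cbln3, secreted cerebellins, Fat2, a cadherin, and the transcription factors Zic1 and Etv1. The SCRB-seq wells of frozen nuclei held 1, 0, 2, 7 and 30 counts of them, against 545 to 910 in FFPE wells, and the frozen SMART-Seq2 wells 0, 0, 1, 0 and 167, against 778 to 2845. All 5 were called higher in FFPE wells, but they passed the filter mainly through those wells, Etv1 in SCRB-seq included, so the calls are no independent support. Their SCRB-seq log2 differences were 6.50, 7.32, 5.38, 4.83 and 2.77, and those of SMART-Seq2 were 10.00, 11.05, 9.11, 9.33 and 2.30. Etv1 in SMART-Seq2 did not pass when the frozen well of 100 or of 50 nuclei was left out (adjusted p up to 0.147). Their summed level was 204 to 5274 CPM in FFPE wells (median 1117) and 0 to 101 in frozen wells (median 5.98, Cbln3 at 0) in SCRB-seq. In SMART-Seq2 it was 1217 to 3277 CPM (median 1533) against 44.4 to 143 (median 62.1, with Cbln1, Cbln3 and Zic1 at 0). The label of every sample is cortex, and these markers were present in the FFPE wells of all 3 methods.

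Markers of other cell types also differed between the arms. Cortical projection neuron markers summed to a median of 337 CPM in FFPE wells (95.8 to 1140) and 830 in frozen wells (491 to 1084) in SCRB-seq, and to 232 (10.2 to 466) against 1451 (777 to 1586) in SMART-Seq2. Inhibitory neuron markers summed to a median of 269 CPM (0 to 1256) against 61.8 (0 to 159) in SCRB-seq and 386 (246 to 1033) against 62.1 (0 to 189) in SMART-Seq2. Astrocyte markers, beside Gabrb1, had a median of 915 CPM in FFPE wells (209 to 5751) and 436 in frozen wells (186 to 846) in SCRB-seq, and 1207 (3.90 to 4158) against 514 (429 to 624) in SMART-Seq2. Oligodendrocyte markers had a median of 1059 CPM (0 to 12427) against 354 (64.7 to 744) in SCRB-seq and 1285 (41.0 to 2036) against 111 (66.2 to 287) in SMART-Seq2. The part of these markers in the results for Gabra6, Gabrg3 and Gabrb1 was not tested.

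Other genes of GABA signalling were taken from a list of 21, with enzymes, transporters, anchors and GABA-B receptors. In SCRB-seq 7 were tested, 2 were called higher and 1 lower, beside 30.2% and 27.7% of all genes, with a median log2 difference of 0.49 beside 0.00 for all genes. DESeq2's Wald test called 1 higher and 2 lower, beside 21.4% and 46.4% of genes. Gad1, which makes GABA, was at 222 CPM in FFPE wells and 20.7 in frozen wells (2.53, SE 0.36, edgeR adjusted p = 6.18e-09). It passed the filter through the FFPE wells, so that call is no independent support, and it did not pass in mineral oil alone (0.56, adjusted p = 0.288). Gphn, the gephyrin scaffold that anchors GABA-A receptors at synapses, was higher by 0.69 (SE 0.24, adjusted p = 0.0109), which DESeq2 size factors reduced to 0.12 (adjusted p = 0.684). Gabbr2, a subunit of the metabotropic GABA-B receptor, was at 202 CPM against 529 (-1.40, SE 0.28, adjusted p = 1.71e-05).

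In SMART-Seq2 20 of the 21 were tested, 0 were called higher and 1 lower, beside 1.45% and 2.64% of all genes, with a median of 0.69 beside -0.13 for all genes. At an unadjusted p under 0.05 edgeR gave 5 of the 20, beside 14.8% of genes, and DESeq2's Wald test called 2 higher and 1 lower, beside 3.64% and 3.29%. The lower one was again Gabbr2, at 407 CPM against 930 (-1.46, SE 0.38, edgeR adjusted p = 0.0272). That call was lost without any 1 of the 3 frozen wells, with adjusted p up to 0.404. Of the 12 other genes named Gabr, 2 were tested in SCRB-seq and 5 in SMART-Seq2, and edgeR called 0 in both, with 1 and 0 at an unadjusted p under 0.05 (60.8% of all genes in SCRB-seq), while DESeq2's Wald test called 1 lower in SCRB-seq (46.4% of all genes) and 0 in SMART-Seq2.

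Single nuclei were sequenced with SMART-Seq2 in plates. A joint table set 143 FFPE nuclei, from the left hemisphere, beside 137 frozen nuclei, from the right hemisphere per the authors' annotation, so fixation and hemisphere cannot be told apart. The FFPE nuclei include 134 that equal those of batch 2, with 0 differing values over 21117 genes, and batch 1 adds 98 FFPE nuclei. Median counts per nucleus were 47887 in FFPE nuclei, 255329 in frozen nuclei and 180584 in batch 1. Each arm is 1 sample, so no test was made, and intervals (95%, exact binomial for shares, exact Poisson for summed counts) cover counting error only.

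Gabra6 was counted in 56 of 143 FFPE nuclei, 39.2% [31.1 to 47.7], and in 1 of 137 frozen nuclei, 0.730% [0.0185 to 4.0], on 2 counts. It was found in 33.3% and 44.6% of nuclei on the 2 FFPE plates of the joint table, in 17.9% and 38.6% on those of batch 1, and in 1.45% and 0% on the frozen plates. Gabra6 was the only member with a higher share in FFPE nuclei, where 95.8% of 14821 genes had a lower share. After thinning every nucleus to 10000 counts, which left 135 FFPE and 127 frozen nuclei, the shares were 23.0% and 0%, the latter allowing up to 2.86% (upper bound of the interval).

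The other 6 members were counted in fewer FFPE nuclei than frozen nuclei, as were most genes. Gabrb1 was counted in 45.5% of FFPE and 82.5% of frozen nuclei, and Gabrg3 in the same numbers of nuclei, 65 and 113. Gabrd was counted in 34.3% and 57.7%, Gabra3 in 18.9% and 51.1%, Gabra2 in 18.2% and 49.6%, and Gabra4 in 14.0% and 37.2%. Thinned to 10000 counts, Gabrb1 was at 27.4% and 59.8% and Gabrg3 at 28.9% and 62.2%, and their intervals did not overlap. Only the members were thinned, so the share of all genes that would stand apart in this way is not known. For the other 4 the thinned intervals overlapped. Gabrd came to 25.2% [18.1 to 33.4] and 32.3% [24.3 to 41.2], Gabra2 to 6.67% [3.09 to 12.3] and 14.2% [8.62 to 21.5], Gabra3 to 7.41% [3.61 to 13.2] and the same 14.2%, and Gabra4 to 2.22% [0.461 to 6.36] and 10.2% [5.56 to 16.9]. An FFPE nucleus held counts of a median of 2 members and a frozen nucleus of 4.

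**Figure D4:**
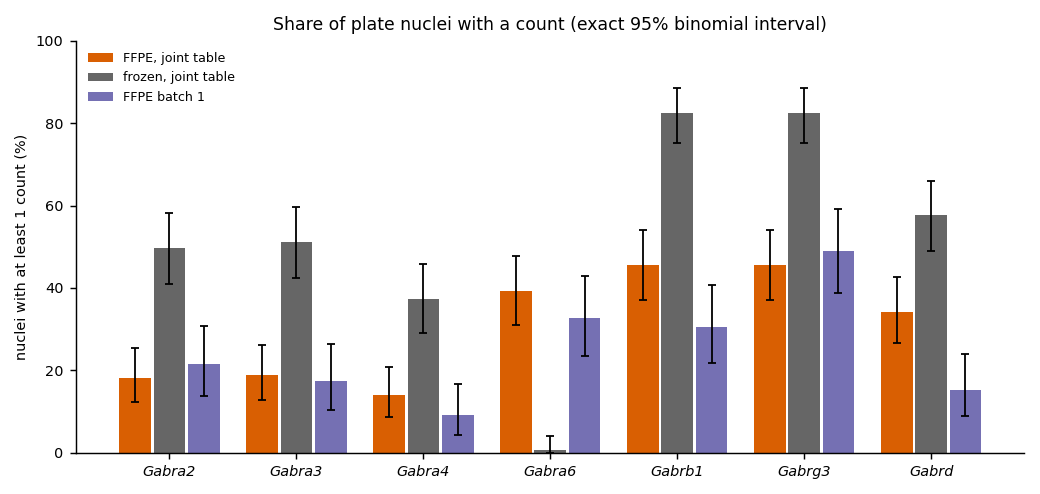
Share of plate nuclei with at least 1 count of each member in FFPE nuclei, frozen nuclei and the FFPE nuclei of batch 1, with exact binomial 95% intervals. Gabra6 stands at 39.2%, 0.730% and 32.7%, and for the other members frozen nuclei had the highest share.

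Levels summed over nuclei gave another order than shares. Gabrb1 reached 570 CPM over the FFPE nuclei against 204 over the frozen nuclei, yet 68.9% of its FFPE counts came from 1 nucleus. For Gabrg3 (572 and 537 CPM), Gabra3 (90.6 and 70.5) and Gabra4 (18.1 and 15.1) 1 nucleus gave 61.9%, 72.3% and 75.9% of the FFPE counts. Gabra6 (95.3 and 0.0315 CPM) and Gabrd (194 and 140) were spread more widely, with 33.5% and 24.7% in the top nucleus. The 9 FFPE nuclei that are not in batch 2 hold 102136 to 4973791 counts each, and in batch 2 without them Gabra6 was counted in 36.6% of nuclei and Gabrb1 and Gabrg3 in 41.8% each. Without those 9, which hold 13521527 of the 23616215 FFPE counts, the summed levels turned below the frozen ones for Gabrg3 (352 CPM), Gabra2 (31.3, from 65.2, against 44.4 frozen), Gabra3 (6.24) and Gabra4 (7.03). Gabrb1 came to 211 CPM, close to its frozen level, but 51.9% of its counts there again came from 1 nucleus. Gabrd came to 432 CPM and Gabra6 to 103.

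The FFPE batches differed in depth, with a median of 180584 counts per nucleus in batch 1 and 42747 in batch 2. In batch 1 Gabra6 was counted in 32.7% of nuclei [23.5 to 42.9], Gabrg3 in 49.0%, Gabrb1 in 30.6%, Gabra2 in 21.4%, Gabra3 in 17.3%, Gabrd in 15.3% and Gabra4 in 9.18%. Batch 1 was below batch 2 for 3 members (Gabra6, Gabrb1 and Gabrd) and above it for 4, beside 59.9% of 9788 genes below. Gabrd was at 32.1% in batch 2. Thinned to 10000 counts, Gabra6 was at 26.7% in batch 1 and 26.2% in batch 2, and Gabrd at 13.3% [7.08 to 22.1] and 21.4% [14.6 to 29.6]. The order of Gabrg3 turned with thinning, to 18.9% [11.4 to 28.5] and 30.2% [22.3 to 39.0]. The intervals of these 3 members overlapped between the thinned batches.

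Granule neuron markers were found in nearly all FFPE nuclei with Gabra6. At least 1 of the 5 was counted in 55 of 56 such FFPE nuclei (98.2%) and in 72 of 87 without Gabra6 (82.8%). In batch 1 it was 31 of 32 (96.9%) and 29 of 66 (43.9%). In frozen nuclei, where Gabra6 was counted in 1, it was 59 of 137 (43.1%). Nuclei with Gabra6 were also deeper, with median counts of 67775.5 against 42315, and of 224451 against 165138 in batch 1. Gabrd, the partner of Gabra6 in granule neurons, was counted in 41.1% [28.1 to 55.0] of FFPE nuclei with Gabra6 and 29.9% [20.5 to 40.6] without, and in batch 1 in 28.1% [13.7 to 46.7] and 9.09% [3.41 to 18.7]. The part of depth in these shares was not tested.

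The droplet library held 7031 FFPE nuclei, with a median of 325 unique molecular identifiers (UMIs) per nucleus, in 12 classes annotated by the authors, 6 of them excitatory neuron classes (ExNeuron). It is 1 library, so classes were compared with counting intervals only. No doublet caller was run here. Gabrb1 gave the sharpest pattern. It reached 2063 CPM in astrocytes [1883 to 2256], on 483 UMIs, against 476 [448 to 504] in all other nuclei, and 43.4% of astrocytes held a UMI against 17.3% of all nuclei. The next classes were ExNeuron5 at 727 and ExNeuron1 at 575 CPM, and oligodendrocytes were at 377. The astrocyte class also led in the fixed astrocyte markers, with a summed 4293 CPM against 1008 to 2050 in the other classes. However, the same class held 1337 CPM of the cortical projection neuron markers. ExNeuron1, the highest class for these, had 1344, and the other ExNeuron classes had 671 to 1005.

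Gabrg3 was highest in ExNeuron4, at 632 CPM [545 to 728] against 262 [242 to 284] in all other nuclei. ExNeuron5 followed at 390 and ExNeuron1 at 338, and Gabrg3 was lower in ExNeuron3, at 141, and in oligodendrocytes, at 156. A UMI was found in 18.4% of ExNeuron4 nuclei and 5.03% of oligodendrocytes, at median depths of 371 and 314 UMIs. ExNeuron4 also held 688 CPM of the inhibitory neuron markers, next to ExNeuron6 with 886, while the 10 other classes had at most 393, so its markers go partly against the name excitatory.

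Gabra6 was found in every class. ExNeuron3 led at 364 CPM [307 to 429] against 185 [167 to 203] in all other nuclei, followed by ExNeuron2 at 301, and these were also the classes with the highest granule neuron markers (1716 and 1215 summed CPM). Astrocytes were lowest at 107. In nuclei with a UMI, ExNeuron3 had 11.9% [10.1 to 14.0] and oligodendrocytes, which are not known to express the gene, 7.38% [4.68 to 11], at median depths of 321 and 314 UMIs. These intervals overlap narrowly. That of ExNeuron2 (9.20% [7.55 to 11.1]) overlaps the oligodendrocyte interval widely, as does that of fibroblasts (10.6% [3.55 to 23.1]), so no order was read among these. The shares in ExNeuron1, 4, 5 and 6 (5.14% to 7.18%) were at or below that of oligodendrocytes. They were above that of astrocytes, 4.01% [2.61 to 5.86]. How much of the signal in any class is background was not tested.

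**Figure D5:**
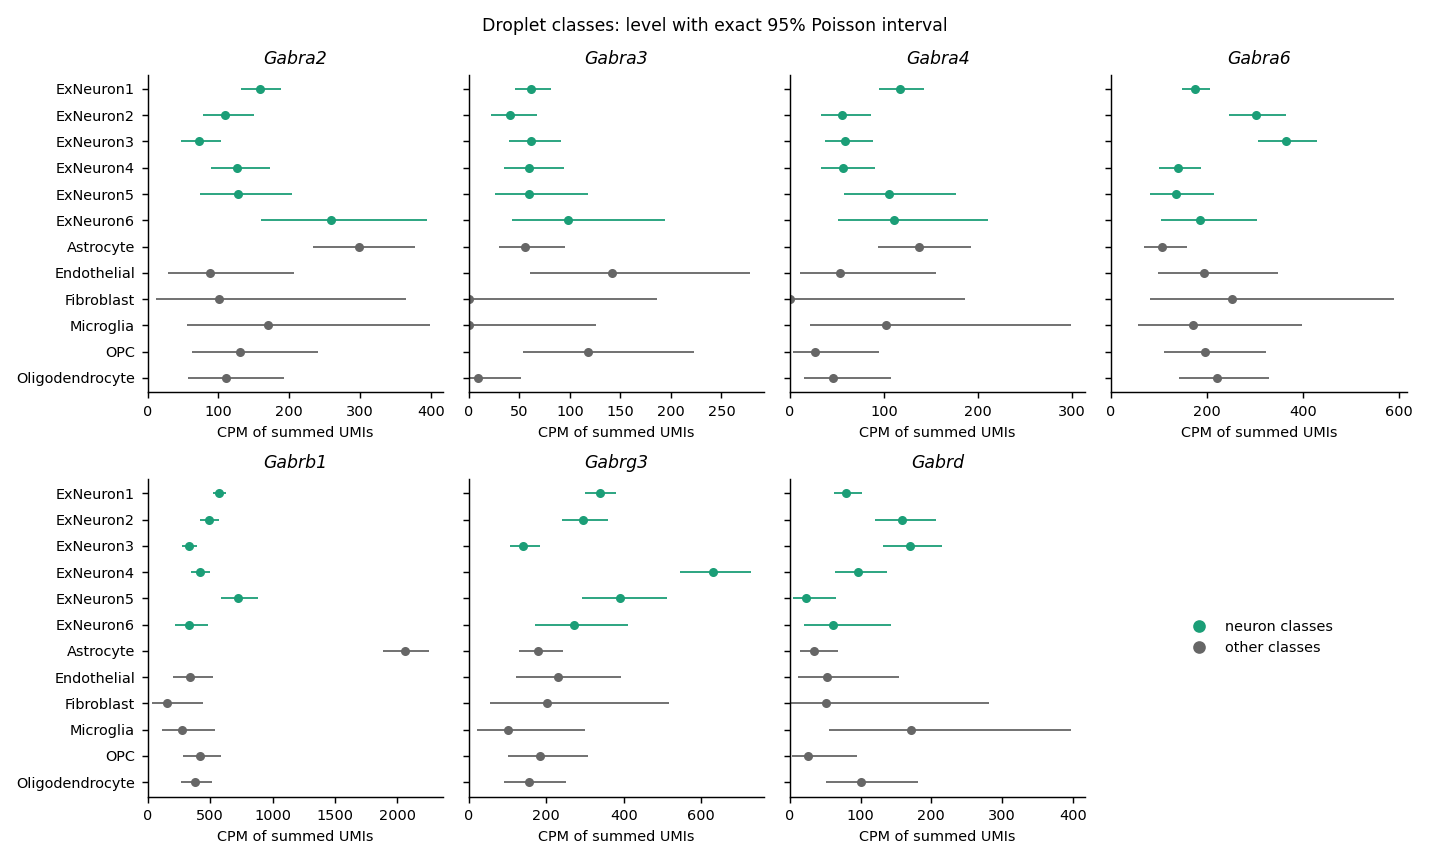
Counts per 1000000 (CPM) of each member in the 12 annotated classes of the droplet library, with exact Poisson 95% intervals. Gabrb1 peaks in astrocytes at 2063, Gabrg3 in ExNeuron4 at 632 and Gabra6 in ExNeuron3 at 364.

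The remaining members were sparse in droplets. Gabrd was at 169 CPM in ExNeuron3 [131 to 215] and 159 in ExNeuron2, and at 34.2 in astrocytes and 22.5 in ExNeuron5. Oligodendrocytes had 101 CPM [50.5 to 181], and the share of nuclei with a UMI was 3.69% [1.86 to 6.51] there and 5.79% [4.49 to 7.34] in ExNeuron3, so no difference was read between them. Its highest value, 171 CPM in microglia, rests on 5 UMIs [55.4 to 398]. Gabra2 had its top value in astrocytes, at 299 CPM [233 to 378] against 129 in the rest, with ExNeuron6 next at 258 [160.0 to 395]. Gabra4 had its top value in astrocytes, at 137 CPM [93.5 to 193] against 81.0 in the rest, with ExNeuron1 next at 117 [95 to 143]. Gabra3 had its top value in endothelial cells, at 141 CPM [61.0 to 279] on 8 UMIs. For each of these 3 the intervals of the first and second class overlapped, so the leading class is not resolved. The same holds for Gabra6 and Gabrd, which leaves Gabrb1 and Gabrg3 with a top class whose interval stood apart from the next. Gabrb1 and Gabrg3 also had the most UMIs of the members (1611 and 795), which narrows their intervals. The share of all genes with such a top class was not computed.

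The genes most like a member across the 12 classes were ranked by Pearson's r of log2(CPM + 10), as a description over classes that share 1 library. They are the top of 897 or 898 candidate genes, and the r that such a choice gives by chance was not tested. Cntn6, a neuronal adhesion molecule (r = 0.79), and Cadps2 (0.76) were most like Gabra6. For Gabrb1 they were Ntm (0.82), Adgrl3 (0.81) and Tspan7 (0.81), and for Gabrg3 Lingo2 (0.88), Snhg11 (0.84) and Grm8, a glutamate receptor gene (0.80). Gabra3 was most like Zfpm2 (0.86), Gabrd like Atp6v1g2 (0.76) and Gabra2 like Luzp2 (0.73).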

How the data were processed

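Nuclei of mouse brain were measured as bulk wells by SCRB-seq and SMART-Seq2, as single nuclei in plates and in droplets. The deposited tables hold whole-number counts per gene and well or nucleus (UMI counts for droplets). The genome builds hg19 and mm10 are named in the submitters' processing notes. The aligner, the counting software, the use of strand and introns, and any collapsing by molecule in SCRB-seq were not given in the sources used here. A combined reference was counted for SCRB-seq, per the file headers, with 10653 human and 19006 mouse genes. Human genes were left out of fits and library sizes. The exceptions are the fit with human GABRB1 counts added to Gabrb1 and the levels given as CPM of all counts. Wells were grouped by method and nuclei number, nuclei by plate, and droplets by class, all from the authors' annotation tables. The authors' annotation also lists a mitochondrial fraction for each nucleus, not used here. The plate table of batch 3 holds 0 nuclei.

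CPM were computed from the counts. R 4.3.3 ran edgeR 4.0.16 with TMM scaling, its filterByExpr filter and the quasi-likelihood test on whole tables, without covariates, over all FFPE wells of an assay and, for FFPE minus frozen, the frozen wells too. A call is an adjusted p under 0.05. DESeq2 1.42.0 was an alternative, beside other scaling, filters, single methods, single nuclei numbers, nuclei number as a term, and wells left out. Scripts were tested on simulated data. The members and gene lists were chosen with earlier results of these data known. The genes named are the members, the fixed lists' called genes, and the 3 genes most like each member (at least 500 UMIs), of which not all are reported here. Droplet nuclei were used as deposited, with no doublet caller run, and any doublet removal before deposit was not given in the sources used. Thinning drew counts without replacement. Annotation was GENCODE M21. Python 3.11, numpy 2.4.6, pandas 2.3.3, scipy 1.17.1 and matplotlib 3.10.9 were used. Other genes named Gabr are given as counts only.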

Additional observations from a re-analysis of the deposited data

Results flagged for a closer look

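In SCRB-seq, groups of 8 wells (1 method and 1 nuclei number) were searched for a well far from the rest. Of 52 groups with any spread, 11 had such a well, each time the highest. Chance flags about 1 in 20 groups if the values are normally distributed. CPM from few counts per well need not be, and a long tail towards high values also gives such flags. No excess over chance was therefore read from the 11. For Gabra2 they were 131 CPM in mineral oil at 100 nuclei (next well 62.2), 516 in heated xylene at 100 (next 200), and 317 in room-temperature xylene at 10 (next 46.2). For Gabra3 it was 231 in heated xylene at 100 nuclei (next 175). For Gabra4 they were 159 in frozen wells at 10 nuclei (next 60.5), 998 in mineral oil at 10 (next 76.4) and 131 in heated xylene at 10 (next 56.3). For Gabra6 it was 601 in heated xylene at 10 nuclei (next 227), and for Gabrg3 931 in room-temperature xylene at 10 (next 295). For Gabrd they were 1022 in frozen wells at 10 nuclei (next 222) and 383 in mineral oil at 100 (next 208).

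Human GABA-A receptor genes had counts in the SCRB-seq table, which the comparisons do not use, apart from the fit that added human GABRB1 to Gabrb1. Human GABRB1 stood at 774 CPM of all counts in FFPE wells [745 to 804] and 191 in frozen wells [166 to 219]. Human GABRB2 stood at 113 CPM in FFPE wells [102 to 125] and 6.43 in frozen wells [2.59 to 13.3]. Human genes took 11.8% of all counts in FFPE wells and 2.08% in frozen wells. Their source was not tested.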

How the results depend on the processing

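The SCRB-seq FFPE minus frozen count of 857 genes became 4785 without the filter, 3849 with 30 summed counts and 478 in wells of 10 nuclei. Its 447 higher and 410 lower calls became 309 and 674 under DESeq2 size factors. The contrast between nuclei numbers (417) gave 729 under size factors, 664 by Wald test, 1205 without the filter and 1385 with 30 summed counts, or 1103 if the mineral oil well with the most Gabra4 counts was also left out. Heated minus room-temperature xylene (21) gave 36 by Wald test, 2899 without the filter, 2129 with 30 summed counts, 117 at 100 nuclei and 62 with nuclei number as a term. In the same order without the Wald test, the oil minus heated xylene count (92) was 3415, 2805, 256 and 143, and that of oil minus room-temperature xylene (111) was 2925, 2182, 178 and 201. SMART-Seq2 FFPE minus frozen (372) gave 630 by Wald test, 91 for heated xylene, 139 for room-temperature xylene, 229 for mineral oil and 162 to 469 with 1 well left out. Its pairs of methods (0) gave 1 by Wald test and 5 without the filter for heated minus room-temperature xylene. Oil minus heated xylene gave 16, 19, 6 with 30 summed counts and 0 to 6 with 1 well left out, and oil minus room-temperature xylene gave 20, 16, 8 and 0 to 3. Directions turned for Gabrb1 in SCRB-seq with human counts added (0.81), and for Gabrd under size factors (-0.36), the Wald test (-0.32) and in mineral oil (-0.17). In SMART-Seq2 they turned for Gabra2 with 1 well left out (-0.44 to 0.041, the latter without the frozen well of 10 nuclei) and in room-temperature xylene (0.18). They also turned for Gabrb1 with 1 well left out (-0.30 to 0.41), without the heated xylene well of 10 nuclei (-0.30) or the mineral oil well of 100 (-0.16), in mineral oil (-0.62) and in room-temperature xylene (-0.29). The causes were not tested. For Gabra6, whose frozen wells are at 0, a call under another setting says nothing about stability. The labels give the wells no replicate numbers, but SMART-Seq2 wells match by nuclei number. With nuclei number as a block, 429 genes were called, among them Gabra6 (10.78) and Gabrg3 (-2.38, adjusted p = 0.0303). DESeq2's poscounts size factors, the adding of human GABRB1 and the leaving out of that well were chosen after seeing the data. Depth limits what the frozen SCRB-seq wells can show of Gabra6 to levels above 2.82 CPM.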
